A study of Mus musculus with 16 samples.

Results

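The genes described here are Eya1, Eya2, Eya3, Eya4, Six4 and Six5, with Dach1 of the same regulatory network. They are 7 of the 50600 genes counted in each library. They were taken by name, after matching the Ensembl identifiers to gene symbols, with no threshold on their values.

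Eya proteins are transcriptional coactivators that carry a tyrosine phosphatase domain and do not bind DNA themselves. They are brought to DNA by homeodomain proteins such as Six4 and Six5, and Dach proteins act in the same complexes, mostly as corepressors. The network is best known from eye, ear, kidney and muscle development, where losing 1 copy of EYA1 or EYA4 is enough to cause disease in humans, so that the number of active copies matters for these genes.

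Allele-specific expression was measured by RNA-seq in clonal cells of hybrid mice with a maternal 129/Sv and a paternal Castaneus (Cast) genome. Hybrid ES cells were grown in N2B27 medium for 7 days and for 3 days as aggregates with EGF and FGF2 at 10 ng/mL, and neural progenitor cell (NPC) clones were picked by hand and kept in the same factors. Astrocytes were derived from NPC clones in medium with BMP4, and 1 library of poly(A)-enriched RNA was made for each of the clones 129, C2 and G4 (female) and mC3 and mE6 (male). Poly(A) libraries of NPCs were made from the clones F5 (female), mG2 and mG6 (male), and 2 libraries after ribosomal RNA depletion from each of the male NPC clones Ch3, Ch5, Ch7 and Ch8. No group carried an engineered allele. The clone named 129 is hybrid like the others, and "129 allele" below always means the maternal copy.

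The 12 clones differ between astrocytes and NPCs, so cell type and clone cannot be told apart, and the same holds for the Ch clones and ribosomal RNA depletion. A code in the library titles also differed between the cell types. The labels do not say whether the 2 libraries of a Ch clone came from separate cultures, so that p-values among the Ch clones may measure a technical spread. Nor do the labels say whether the Ch clones are related to each other, and tests over the 12 clones treat them as separate. In these bulk samples, fewer cells of a type and less RNA per cell cannot be told apart.

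The poly(A) libraries held 69925081 to 105892734 reads on genes, of which 21555315 to 32518327 were assigned to an allele, and the Ch libraries held 20871111 to 30920672 reads with 4193927 to 5971768 assigned. Levels are counts scaled to a common library total (CPM) after TMM scaling over the 12 clones. The Cast share is the percentage of allele-specific reads from the Cast allele, given where at least 20 such reads were counted, with a 95% Wilson interval that covers counting error only. Monoallelic values are those below 15% or above 85%, biallelic values lie between 35 and 65%, and what remains is termed biased. Each share is set beside the median share of the other genes within a 20 Mb window around the gene, because a lost, gained or copied chromosome segment moves all genes of a window together.

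The cells carried the markers of their labels. Gfap, the intermediate filament gene of astrocytes, had 62.7 to 1873 CPM in the 5 astrocyte clones and 0.478 to 3.74 CPM in the 7 NPC clones. Mki67, a gene of dividing cells, had 0.469 to 2.20 CPM in astrocytes and 206 to 469 CPM in NPCs. Of the marker lists, 3 of 6 astrocyte genes were higher and 3 of 3 proliferation genes and 2 of 6 progenitor genes were lower in astrocytes than in poly(A) NPCs. The summed CPM of 5 neuron genes overlapped between astrocytes (436 to 1296) and poly(A) NPCs (1009 to 1727), and Snap25 among them was higher in astrocytes. Col1a1, a fibroblast gene, had 2.30 to 203 CPM in astrocytes and at most 0.742 CPM in NPCs, whereas the fibroblast gene Col1a2 stayed at or below 0.0713 CPM in all clones. The part of other cells in the results below was not tested.

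Across the 12 clones, the 7 genes gave 84 values, of which 74 reached 20 allele-specific reads. Of these, 44 were biallelic (59.5%, against 82.0% of all values of autosomal genes), 13 biased and 17 monoallelic (23.0%, against 5.59%). With limits of 5 and 95%, 5 values were monoallelic, 3 of Six4 and 2 of Eya4, and none of Eya1, Eya2 or Eya3. Values of the same gene in different clones are not independent, and no test was made of this share. Eya2 gave 6 of the monoallelic values, Eya4 gave 4, Eya1 and Six4 gave 3 each, and Eya3 gave 1. Six5 was biallelic in 12 of 12 clones, and Dach1 was biallelic in 3 clones and biased in 4. The 3 values of Six4 and that of Eya3 lay in windows whose median share was itself outside 40 to 60%. Without the 11 values in such windows, 13 of 63 were monoallelic, 12 biased and 38 biallelic. The shares over all genes were not computed outside such windows, and the 5.59% and 82.0% include values inside them. The authors had selected Eya1, Eya2 and Eya4 as genes earlier found to be randomly monoallelic in NPCs. Eya3 was their control, described earlier as biallelic, so the 7 genes were not picked blindly.

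**Figure D1:**
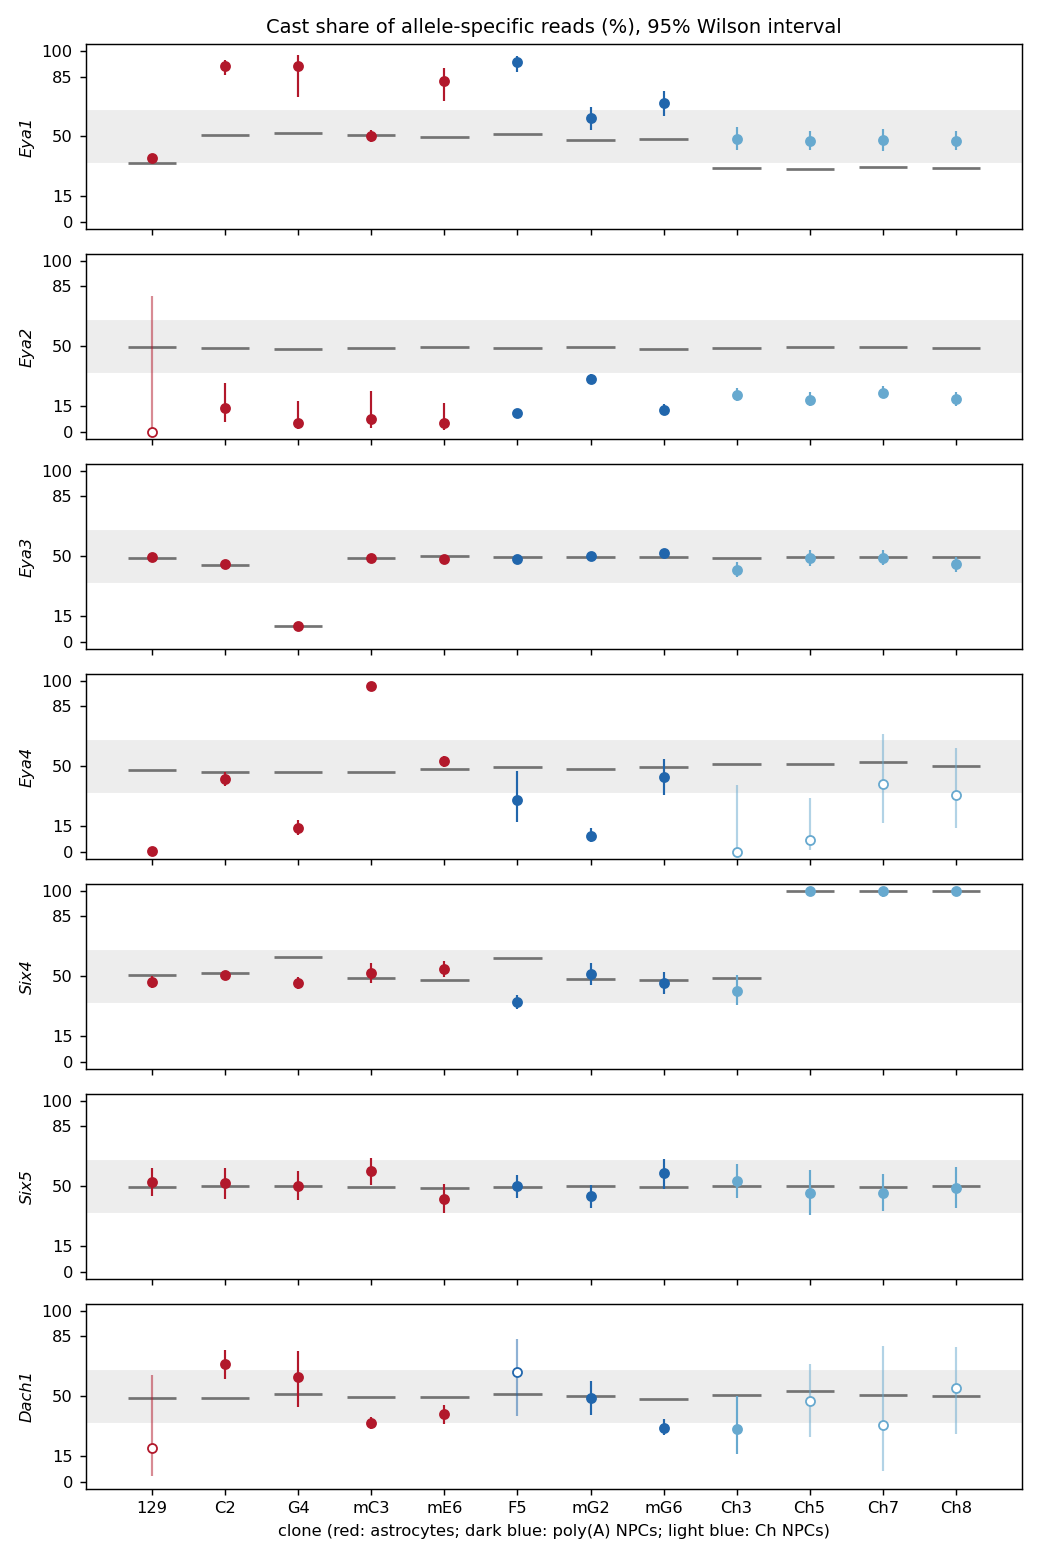
Cast share of allele-specific reads (%, vertical axis) of each gene in 12 clones (horizontal axis; red astrocytes, dark blue poly(A) NPCs, light blue Ch NPCs). Points are shares with 95% Wilson intervals, open points rest on fewer than 20 reads, grey lines are the median share of the 20 Mb window, and the shaded band is the biallelic range. Eya2 lies below its window in every clone with enough reads, Eya1 lies on or above it, Eya4 lies on both sides, and the high Six4 values in Ch5, Ch7 and Ch8 and the low Eya3 value in G4 lie on their windows.

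Eya1, a coactivator needed for ear and kidney development, varied more in level between astrocyte clones than any other of the 7 genes except Dach1. Its level was 108 CPM in clone 129, 24.7 in mC3, 5.43 in C2, 1.64 in mE6 and 0.641 in G4. In poly(A) NPCs it was 2.61 CPM in F5, 8.52 in mG2 and 5.30 in mG6, and in the Ch clones it was 13.9 in Ch3, 21.8 in Ch5, 14.2 in Ch7 and 20.1 in Ch8. The astrocyte values spread 169-fold, with 2 clones above and 2 below every poly(A) NPC clone. The mean difference between astrocytes and poly(A) NPCs, 2.41 ± 1.55 (log2, SE), did not pass the test (edgeR quasi-likelihood, Benjamini-Hochberg adjusted p = 0.285), and without clone 129 it was 0.61 (edgeR adjusted p = 0.723).

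The Cast share of Eya1 varied with the clone as well. In astrocytes it was 37.6% in clone 129, 91.2% in C2, 91.3% in G4 (23 reads, interval 73.2 to 97.6%), 50.4% in mC3 and 82.3% in mE6. In poly(A) NPCs it was 93.7% in F5, 60.6% in mG2 and 69.7% in mG6, and it lay between 47.5 and 48.8% in the 4 Ch clones. The 3 monoallelic clones, C2, G4 and F5, all expressed the Cast allele, and none of the 12 was monoallelic for the 129 allele. The SD between clones was 20.6 percentage points, and 6.82% of 10820 autosomal genes had a larger one.

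Multiplying level by share gives the level of each allele. The 129 allele of Eya1 reached 67.6 CPM in clone 129 and 12.2 in mC3, but 0.475 in C2, 0.291 in mE6, 0.164 in F5 and 0.0557 in G4, the last from 2 reads. The Cast allele reached 40.7 CPM in clone 129 and 12.4 in mC3, and had 4.95 in C2, 1.35 in mE6, 2.44 in F5 and 0.585 in G4. Both alleles were thus highest in the same clones, and the SD over 12 clones of the log2 level was 2.70 for the 129 allele and 1.53 for the Cast allele. Whether the alleles differ in this spread was not tested.

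The share of Eya1 was also set against its chromosomal surroundings. On chromosome 1 (GRCm38.p6, Eya1 at 14168953 to 14311035), the window around the gene had a median share of 34.6% in clone 129. In the Ch clones this median was between 30.8 and 32.2%, and in the other 7 clones it was between 48.1 and 52.3%. Over all other genes of chromosome 1 with enough reads, the median was 34.2% in clone 129 and 32.1 to 32.7% in the Ch clones. In the other 7 clones it was 47.7 to 51.0%, so the shift was not limited to the window. Eya1 thus lay near its window in clone 129, and in the Ch clones it was biallelic where its window was shifted towards the 129 allele. Over 12 clones its share was above its window in 11, by a median of 17.0 points (exact sign-flip test over clones, two-sided, adjusted p = 0.00385 over all genes), a distance that 4.62% of all genes exceeded. That test called 49.5% of all autosomal genes, so a call alone does not set Eya1 apart. Without reference to the windows, the mean of Cast over 129 was 0.94 ± 0.40 (log2, SE, edgeR adjusted p = 0.0741), which passed without clone 129 (1.18, edgeR adjusted p = 0.0220) and in the 7 clones with even windows (1.88, edgeR adjusted p = 0.0442). Of the nearest genes with enough reads, Lactb2 (508370 bases away) had shares of 27.2 to 52.3% in 12 clones and Kcnb2 (975890 bases away) had 79.4 to 100% in 8 clones.

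Among the 4 Ch clones, the only ones with 2 libraries, Eya1 was the 1 of the 7 genes whose level passed the test between clones (edgeR F-test, adjusted p = 0.00585, against 16.6% of all genes called). Eya2 passed without a library of Ch5 (edgeR adjusted p = 0.0270) and Dach1 without either library of Ch8 (edgeR adjusted p = 0.0253 and 0.0355). On the scale of these 8 libraries Eya1 had 20.5 CPM in Ch5 (both libraries) and 19.5 and 18.1 in Ch8, but 14.1 and 12.3 in Ch3 and 14.3 and 12.6 in Ch7. The clone means differed up to 1.55-fold, and libraries of the same clone up to 1.15-fold. The Cast share of Eya1 did not differ detectably between these clones at 83 to 184 allele-specific reads a library (edgeR adjusted p = 1, against 9.34% of all genes called). The adjusted p-values of the other 6 levels ran from 0.0719 (Dach1) to 0.670 (Six5).

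**Figure D2:**
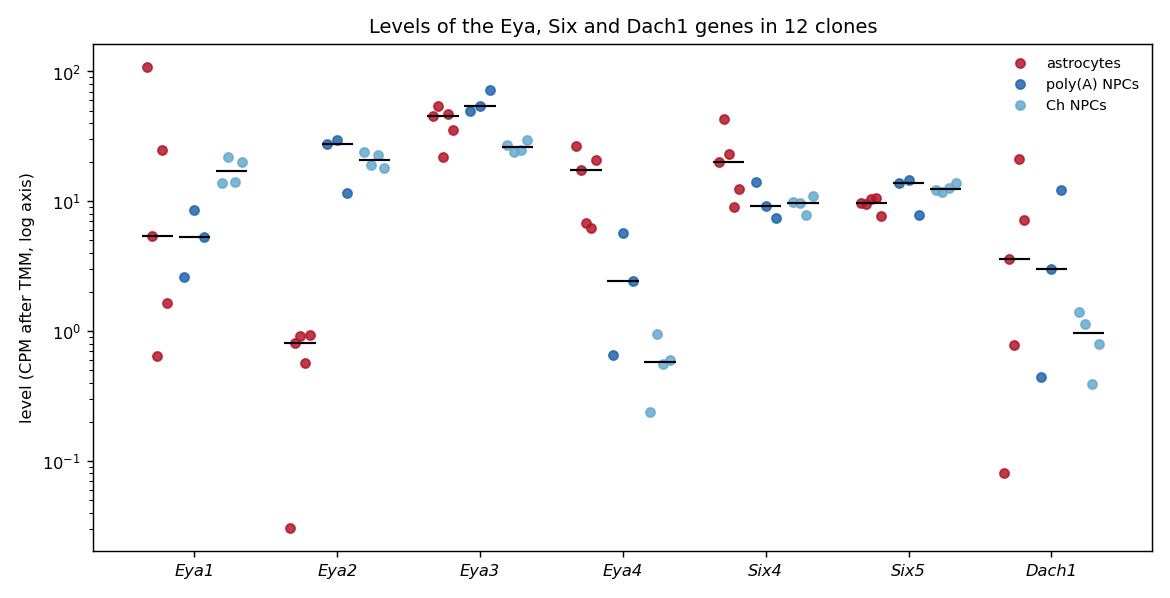
Level of each gene (CPM after TMM scaling, log axis) in the 5 astrocyte, 3 poly(A) NPC and 4 Ch NPC clones. Points are clones and lines are medians, and the Ch points are sums of 2 libraries. Eya2 and Eya4 have no overlap between astrocytes and poly(A) NPCs, in opposite directions, as for 33.9% of genes with a mean of at least 1 CPM. The astrocyte points of Eya1 and Dach1 span the poly(A) NPC points.

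Eya2 was the only one of the 7 genes called between cell types, against 25.5% of the 18192 genes tested. It had 0.0305 CPM in clone 129 (3 reads), 0.811 in C2, 0.925 in G4, 0.570 in mC3 and 0.927 in mE6. In NPCs it had 27.4 CPM in F5, 29.7 in mG2 and 11.6 in mG6, and 18.0 to 23.8 CPM in the Ch clones. All 5 astrocyte clones lay below all 7 NPC clones. Between astrocytes and poly(A) NPCs, levels also did not overlap for 33.9% of the 13671 genes with a mean of at least 1 CPM. The level was 33.5-fold lower in astrocytes than in poly(A) NPCs (log2 difference -5.07 ± 0.83, SE, edgeR adjusted p = 0.00434), and it stayed called in all alternatives, with differences from -5.46 to -4.76.

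In both cell types Eya2 was expressed mainly from the 129 allele. The Cast share was 13.9% in C2, 5.56% in G4, 7.69% in mC3 and 5.26% in mE6, from 26 to 38 reads each. In poly(A) NPCs it was 11.2% in F5, 30.9% in mG2 and 12.8% in mG6, and in the Ch clones 21.7% in Ch3, 18.9% in Ch5, 23.1% in Ch7 and 19.1% in Ch8. Hence no clone was biallelic, and 6 of 11 were monoallelic. The upper ends of the intervals of the astrocyte shares lay between 17.3 and 28.7%, and the difference in log2 of Cast over 129 between the cell types, -1.13 ± 0.48 (SE), did not pass the test (edgeR adjusted p = 0.333, against 2.08% of genes called).

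The windows around Eya2 on chromosome 2 (165595028 to 165771727) had median shares of 48.4 to 49.9%, so the gene stood apart from the even medians of its windows. It lay below its window in 11 of 11 clones, with a median difference of -35.1 points (exact sign-flip test, adjusted p = 0.00385), and 1.93% of all genes lay farther from theirs. Averaged over the 3 groups, Cast over 129 was -2.56 ± 0.19 (log2, SE), a share of 14.5% (edgeR adjusted p = 1.92e-06, against 50.1% of genes called). The next gene, Zmynd8, lies 12425 bases from Eya2 and had shares of 32.8 to 86.8% with a median of 48.2%. On the other side, Slc2a10 lies 75111 bases away and had 22.2 to 70.8% in 11 clones, with a median of 38.3%. The 2 near genes were thus not even in every clone. In F5, where Eya2 had 11.2% Cast, Zmynd8 had 86.8%, and in mG2 they had 30.9% and 32.8%. These were the clones with the highest and lowest shares of Zmynd8, and a relation of the pair over all clones was not tested.

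Eya3, the most widely expressed coactivator of the family, had similar levels of both alleles in 11 of 12 clones. It had 45.4 CPM in clone 129, 54.4 in C2, 21.9 in G4, 46.8 in mC3 and 35.2 in mE6, against 49.3 in F5, 54.0 in mG2 and 71.5 in mG6 and 24.0 to 29.6 in the Ch clones. Of the 5 astrocyte clones, 4 lay below all poly(A) NPC clones, but the difference did not pass the test (log2 -0.46 ± 0.29, SE, edgeR adjusted p = 0.274). Its share was biallelic in 11 of 12 clones, from 42.2% in Ch3 to 51.8% in mG6.

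The exception was the astrocyte clone G4, in which Eya3 had 9.48% Cast (79 of 833 reads). The window around Eya3 on chromosome 4 (132639025 to 132724765) had a median share of 9.60% in that clone. From 130 Mb on, the medians of 10 Mb bins were 6.89 to 7.75%, while the 12 bins before it had 47.4 to 52.6%. In G4 the 129 allele of Eya3 had 19.8 CPM, within the 18.2 to 29.7 of the other astrocyte clones, and the Cast allele had 2.08 CPM against 17.0 to 24.8. The median level of the window genes in G4 was 0.69 lower (log2) than in the other astrocyte clones, and that of Eya3 was 1.04 lower. Without G4, the SD of the Eya3 share between clones fell from 11.4 to 2.69 percentage points.

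Eya4, a coactivator gene linked to hearing, was monoallelic for the 129 allele in some clones and for the Cast allele in another. Its Cast share was 0.399% in clone 129 (5 of 1252 reads), 13.9% in G4, 42.5% in C2, 53.1% in mE6 and 97.2% in mC3 (208 of 214 reads). In poly(A) NPCs it was 9.09% in mG2, 30.3% in F5 (33 reads) and 43.5% in mG6, and the Ch clones had only 6 to 14 allele-specific reads. Monoallelic clones of either allele thus stood beside biallelic ones, with intervals far apart. The SD of 30.8 percentage points was exceeded by 0.684% of genes, and without mC3, the only clone with mainly Cast reads, it was 20.01, below the 25.5 of Six4 and the 21.1 of Eya1. By interquartile range Eya1 (36.8 points) was also above Eya4 (33.2). The windows on chromosome 10 around Eya4 (23102962 to 23350838) had median shares of 46.5 to 52.3% in all 12 clones, and the next genes with enough reads on either side, Tbpl1 and Rps12, had 33.3 to 63.8% and 52.5 to 56.2%.

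The promoters of Eya4 and Eya3 are shown because the former was monoallelic for either allele and the latter biallelic outside the affected segment of G4. They are RefSeq sequences of GRCm38.p6, from 250 bases before to 50 after a start, 5′ to 3′, with CG dinucleotides, the sites of DNA methylation, in capitals. Eya4 is on the minus strand (chr10:23349894-23350193) and Eya3 on the plus strand (chr4:132638796-132639095).
Eya4: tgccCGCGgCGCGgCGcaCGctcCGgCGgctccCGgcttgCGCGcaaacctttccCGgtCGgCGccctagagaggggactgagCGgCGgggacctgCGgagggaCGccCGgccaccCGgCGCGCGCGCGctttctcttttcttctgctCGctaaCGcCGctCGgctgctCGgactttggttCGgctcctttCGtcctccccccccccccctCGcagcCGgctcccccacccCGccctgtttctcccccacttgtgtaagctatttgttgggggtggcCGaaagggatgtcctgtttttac
Eya3: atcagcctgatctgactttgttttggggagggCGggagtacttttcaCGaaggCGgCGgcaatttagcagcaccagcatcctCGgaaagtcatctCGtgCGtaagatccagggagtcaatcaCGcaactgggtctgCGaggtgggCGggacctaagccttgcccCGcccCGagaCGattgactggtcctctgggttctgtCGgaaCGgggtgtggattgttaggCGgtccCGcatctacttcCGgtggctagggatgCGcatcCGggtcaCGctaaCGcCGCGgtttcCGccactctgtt
Eya4 held 36 CG dinucleotides, a number reached by 6.23% of 32851 promoters of this length, and Eya3 held 25, reached by 18.4%. Another Eya4 start had 28, and those of Six4 had 16 and 15, Six5 had 17 and Dach1 had 13, against a median of 7.0. No promoter of Eya1 or Eya2 is shown. The promoters of these 5 genes thus all held more of these letters than the median promoter, and methylation was not measured in these libraries.

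The level of Eya4 was higher in astrocytes in every comparison of single clones, but the test depended on the tool. It had 26.6 CPM in clone 129, 17.5 in C2, 6.85 in G4, 6.21 in mC3 and 20.9 in mE6. In NPCs it had 0.654 CPM in F5, 5.70 in mG2 and 2.44 in mG6, and 0.240 to 0.942 CPM in the Ch clones. The groups did not overlap, as for 33.9% of the 13671 genes with a mean of at least 1 CPM. The difference of 2.45 ± 0.80 (log2, SE) missed the threshold in edgeR (adjusted p = 0.0531) and passed it in DESeq2 (adjusted p = 0.00450) and with the Ch clones in the edgeR fit (adjusted p = 0.0233). Over all 14 alternatives the adjusted p ran from 0.00450 to 0.149.

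Level and allelic state of Eya4 did not go together. The highest level, in clone 129, came almost wholly from the 129 allele at 26.5 CPM, whereas in mE6 and C2 it was made up of 11.1 and 7.42 CPM from Cast and 9.78 and 10.1 CPM from 129. The lowest astrocyte levels were in mC3, with 6.04 CPM from Cast and 0.174 from 129, and in G4, with 0.953 from Cast and 5.90 from 129. Hence the single active allele of clone 129 gave more RNA than both alleles of any other clone, and that of mC3 gave less than either total of C2 or mE6.

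**Figure D3:**
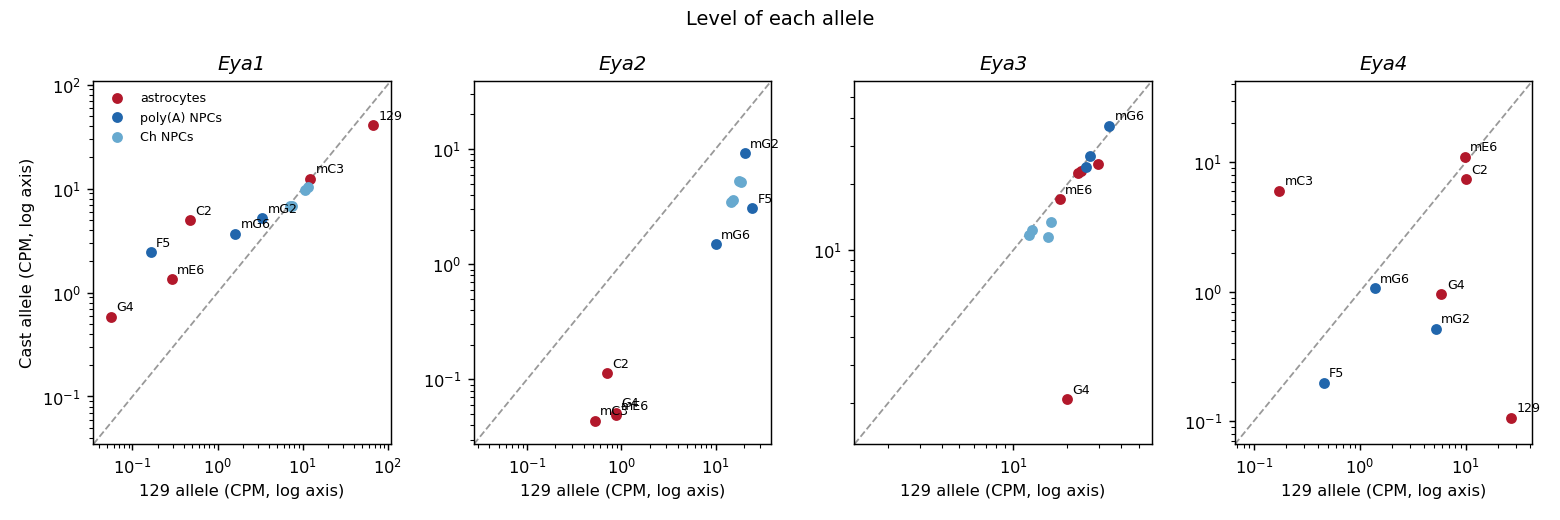
Level of the Cast allele (CPM, log axis) against that of the 129 allele (CPM, log axis) for the 4 Eya genes in clones with at least 20 allele-specific reads. Colours are the groups, labels name poly(A) clones (in the Eya3 panel only G4, mE6 and mG6), and the dashed line marks equal levels. Eya1 points leave the line upwards as the level falls, Eya2 points lie below it at high and low levels, Eya3 points lie near it except G4, and Eya4 points lie far from it on both sides.

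Six4 encodes a homeodomain protein that recruits Eya proteins, and it was biallelic in 8 of 12 clones. Its level was 20.2 CPM in clone 129, 43.2 in C2, 23.1 in G4, 9.05 in mC3 and 12.4 in mE6. In NPCs it had 14.0 CPM in F5, 9.19 in mG2 and 7.42 in mG6, and 7.79 to 10.98 CPM in the Ch clones. Of the 5 astrocyte clones, 3 lay above all poly(A) NPC clones, and the difference, 1.15 ± 0.51 (log2, SE), did not pass the test (edgeR adjusted p = 0.128).

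The share of Six4 was 46.1 to 54.3% in the 5 astrocyte clones, 51.5% in mG2, 46.0% in mG6 and 41.7% in Ch3. In Ch5, Ch7 and Ch8 all 152, 103 and 155 allele-specific reads were from Cast, which allows a 129 share of up to 1.97, 2.91 and 1.94%. This was the only difference in share among the Ch clones that was called for the 7 genes (edgeR F-test, adjusted p = 2.66e-36). It was shared by the chromosome: every 10 Mb bin of chromosome 12 had a median share of at least 99.9% in these 3 clones and of 47.7 to 52.3% in Ch3. The level did not follow. Six4 had 9.66, 7.79 and 10.98 CPM in Ch5, Ch7 and Ch8 and 9.87 in Ch3, and the 103 window genes had median log2 differences from Ch3 of -7.37e-06, -0.06 and -0.04. The level of Six4 among the Ch clones did not differ detectably (edgeR adjusted p = 0.217).

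In the NPC clone F5, Six4 was biased to the 129 allele at 34.9% (interval 30.7 to 39.2%). The window of 20 Mb around it (Six4 at 73099609 to 73114031) had 60.6% in that clone and 61.4% in G4, since bins from 70 Mb on had 65.6 to 75.6% in F5 and 64.4 to 73.1% in G4. Within 2 Mb on each side the medians were 49.0% in F5 and 48.5% in G4, and Six4 in G4 had 46.1%. Between F5 and G4, Six4 thus departed from the median of its close surroundings only in F5. The near gene Trmt5, 154484 bases away, was not at that median. It had 33.3% in F5, close to Six4, and 41.5% in G4. In mG6, Trmt5 had 33.5% where Six4 had 46.0%. Averaged over the groups, Cast over 129 was 1.46 ± 0.63 (log2, SE, edgeR adjusted p = 0.0782), a value set by the Ch clones: without Ch3 it was 3.63 (edgeR adjusted p = 3.63e-06), and with clones of uneven windows left out it was -0.17 (edgeR adjusted p = 0.210).

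Of the paralogs, Six2, Six3 and Six6 had at most 0.659, 0.802 and 0.0558 CPM, and Dach2 had at most 1.92 CPM.

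Six5, a homeodomain gene beside the myotonic dystrophy gene Dmpk, was biallelic in all 12 clones. Its level was 9.74 CPM in clone 129, 9.47 in C2, 10.4 in G4, 10.6 in mC3 and 7.74 in mE6, against 13.8 in F5, 14.7 in mG2 and 7.85 in mG6 and 11.8 to 13.7 in the Ch clones. The groups overlapped (log2 -0.28 ± 0.26, SE, edgeR adjusted p = 0.467). The share ran from 42.7% in mE6 to 58.9% in mC3, with windows on chromosome 7 (Six5 at 19094544 to 19098549) at 49.3 to 50.3%. The SD of 4.98 percentage points was close to the median of 4.99 over all genes, and above the 2.69 of Eya3 without G4, and the mean over groups of Cast over 129 was 0.01 ± 0.10 (log2, SE, edgeR adjusted p = 1). Dmpk, 723 bases away, had 45.2 to 51.8%.

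Dach1 encodes a nuclear protein that binds DNA and recruits corepressors. Its level was 0.0812 CPM in clone 129 (8 reads), 3.60 in C2, 0.777 in G4, 21.1 in mC3 and 7.23 in mE6. In NPCs it had 0.443 CPM in F5, 3.00 in mG2 and 12.2 in mG6, and 0.390 to 1.39 CPM in the Ch clones. The astrocyte values enclosed the poly(A) NPC values (log2 0.35 ± 1.47, SE, edgeR adjusted p = 0.888), and leaving out mC3 turned the difference to -0.81.

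The 7 clones with enough reads of Dach1 were biallelic or biased. The share was 69.1% in C2, 61.3% in G4 (31 reads), 34.5% in mC3, 39.4% in mE6, 49.0% in mG2, 31.7% in mG6 and 30.8% in Ch3 (26 reads). The 2 clones with the highest levels, mC3 and mG6, were biased to the 129 allele, with intervals of 31.1 to 38.0% and 27.3 to 36.5%, and C2 was biased to Cast (interval 59.9 to 77.0%). The windows on chromosome 14 (Dach1 at 97786846 to 98169765) had medians of 48.5 to 53.1%. Nearest with enough reads were Mzt1 (864779 bases away), with shares of 32.7 to 47.6%, and Pcdh9 (3894012 bases away), with 50.5 to 99.3%. Mean Cast over 129 was -0.30 ± 0.28 (log2, SE, edgeR adjusted p = 0.408).

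The relation of level to allelic state was then compared over clones. The log2 level was correlated with the distance of the Cast share from 50%, after both were centred on the mean of their group, and tested by exact permutation of clones within groups, two-sided. After adjustment over the 11384 genes tested, the share called was 0.00%, and 10.0% had an unadjusted p under 0.05, 5.88% with a negative r. For Eya1, Pearson's r was -0.75 over 12 clones (exact p = 0.0495, adjusted p = 0.495) and Spearman's rho was -0.83 (exact p = 0.0274, adjusted p = 0.544). Within groups, clones with lower levels thus tended to lie farther from 50%. The distance was taken from 50% also in clone 129 and the Ch clones, whose windows had medians of 30.8 to 34.6%. The shares of G4 and mE6, both at low levels, rested on 23 and 62 reads. Without G4 and clone 129, the clones farthest from the median level, r was -0.79. The relation thus did not pass the adjusted threshold. The unadjusted exact p rose above 0.05, to between 0.0653 and 0.139, when C2, G4, mE6, F5, mG2 or mG6 was left out, with r between -0.79 and -0.70.

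For the other genes no relation passed even without adjustment. Eya2 had r = -0.40 over 11 clones (exact permutation p = 0.663, adjusted p = 0.922), and rho was -0.20 (exact p = 0.790). Eya3 had r = -0.76 over 12 clones (exact permutation p = 0.190, adjusted p = 0.676) and rho = -0.32 (exact p = 0.501), and this value rested on G4: without it r was 0.45. Six4 had r = 0.02 (exact permutation p = 0.902) and Six5 had r = -0.44 (exact permutation p = 0.332). Eya4 and Dach1 had too few clones at 20 reads in some groups. With a minimum of 10 reads, r was 0.05 for Eya4 over 11 clones (exact permutation p = 0.913) and 0.19 for Dach1 over 10 clones (exact permutation p = 0.682).

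**Figure D4:**
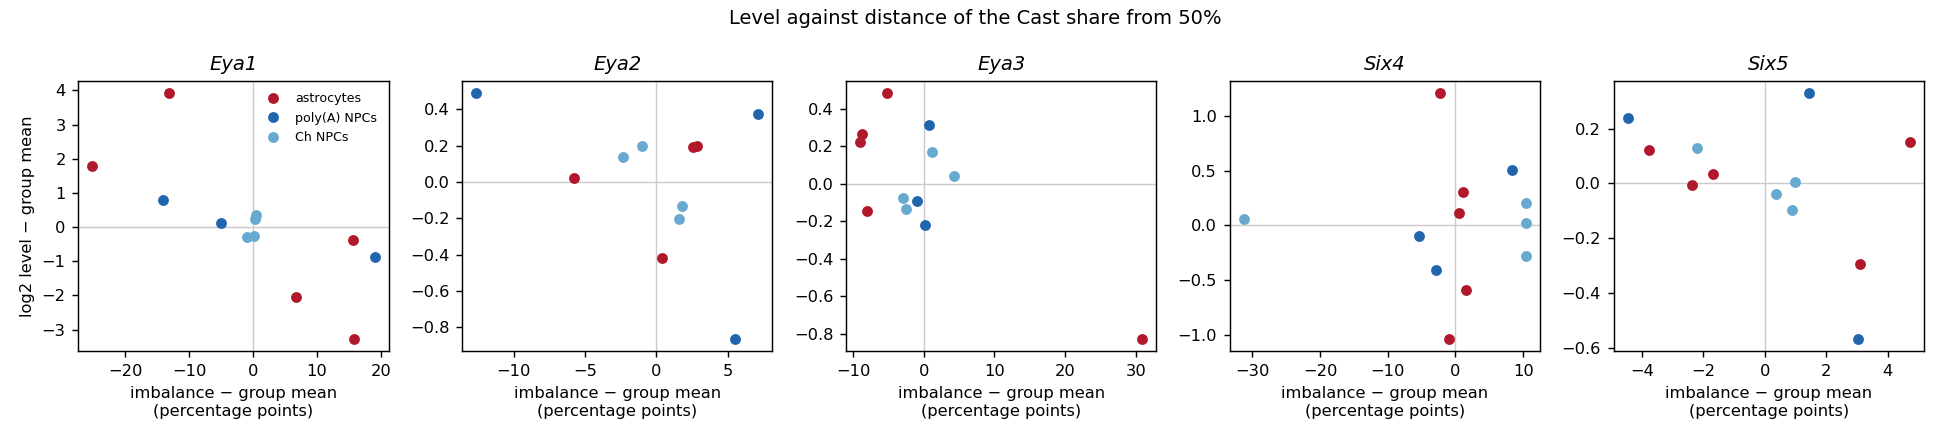
Log2 level minus its group mean (vertical axis) against the distance of the Cast share from 50% minus its group mean (percentage points, horizontal axis), for the 5 genes with enough clones in each group; points are clones, coloured by group. Eya1 points run from high levels at small distance to low levels at large distance (r = -0.75), and the slope seen for Eya3 comes from the single point at the right, G4.

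Other members of the network were taken from 3 lists and compared between astrocytes and poly(A) NPCs. Over all genes tested, 13.0% were higher and 12.6% lower in astrocytes. Of 11 network factors, 7 could be tested and 1 was higher in astrocytes: Sobp, a zinc finger protein gene, had 32.5 ± 12.5 CPM in astrocytes (SD, n = 5) and 10.6 ± 1.31 in poly(A) NPCs (SD, n = 3), with an edgeR adjusted p of 0.00754. Of 11 partners and cofactors, all tested, 2 were higher and 1 lower, together near the 25.5% called over all genes. The corepressor genes Ski and Skil rose 2.88-fold and 4.86-fold (edgeR adjusted p = 0.00382 and 0.00116), and H2ax, the histone variant whose phosphorylated tyrosine is a substrate of Eya phosphatases, was 9.06-fold lower (edgeR adjusted p = 0.000219). The coactivator genes Crebbp and Ep300 had log2 differences of 0.06 ± 0.29 and 0.11 ± 0.35 (SE), which did not pass.

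Of 7 known target genes, 6 could be tested, and 1 was higher and 2 lower in astrocytes, against 13.0% and 12.6% of all genes. Ccnd1 and Myc, which drive the cell cycle, were 19.2-fold and 12.1-fold lower (edgeR adjusted p = 0.00611 and 9.54e-05), and Ezr, which links membrane and actin, was 4.20-fold higher (edgeR adjusted p = 0.00434). The median log2 difference was 0.72 for the network factors, 0.04 for the partners and -0.75 for the targets, against 0.08 over all genes tested. The proliferation genes fell in the same comparison, with a median log2 difference of -7.04, and their part in the change of H2ax, Ccnd1 and Myc was not tested.

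Likeness of level patterns was measured by Pearson's r of group-centred log2 levels over the 12 clones, among 13084 other genes with a mean of at least 1 CPM. The most like genes were Sdc1 and Rimbp3 for Eya1 (r = 0.94 and 0.94), Stc2 and 2310046O06Rik for Eya2 (0.96 and 0.96), Plcd1 and Ralgds for Eya3 (0.96 and 0.96) and Rab11fip4 and Gm9833 for Eya4 (0.90 and 0.88). They were Fbxl12 and Spry1 for Six4 (0.98 and 0.96), Sall2 and Fbxl19 for Six5 (0.97 and 0.92) and Arfip1 and Pdzd2 for Dach1 (0.97 and 0.96). The 12 points share libraries and the best of many genes were taken, so the values are given as a description. No member was among the 2 genes most like another.

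Per kilobase of exon, the order of the mean levels of the 7 genes differed between the cell types. In poly(A) NPCs, the mean was 10.3 ± 2.07 CPM per kb (SD, n = 3) for Eya3 and 8.39 ± 3.62 for Eya2. Single clones did not keep this order. Eya2 was above Eya3 in F5 (10.0 against 8.74) and mG2 (10.9 against 9.56) and below it in mG6 (4.24 against 12.7). In the Ch clones Eya2 had 6.60 to 8.71 and Eya3 had 4.25 to 5.25. Next by mean in poly(A) NPCs were Six5 with 4.24 ± 1.30 and Six4 with 1.82 ± 0.610. In astrocytes, Eya3 had 7.22 ± 2.22 (SD, n = 5) and Eya1 6.43 ± 10.5, with clone 129 alone at 24.8, and Six4 with 3.84 ± 2.37, Eya4 with 3.72 ± 2.12 and Six5 with 3.36 ± 0.393 did not differ beyond their spread. Eya2 had the lowest mean in astrocytes, 0.239 ± 0.138, and overlapped Dach1 (0.897 ± 1.18), which had 0.106 in G4 against 0.339 for Eya2, and Eya1, which had 0.147 in G4. Eya1, Eya4 and Dach1 in poly(A) NPCs, at 1.25 ± 0.677, 0.699 ± 0.610 and 0.7102 ± 0.842, overlapped as well.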

How the data were processed

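The authors aligned the reads with TopHat2 (2.1.0) and Bowtie2 to a GRCm38 (mm10) genome masked at strain SNPs, assigned read pairs to alleles and counted them per gene, by strand, with featureCounts (1.5.1). The annotation version is not given in the sources used here. The deposited counts are unnormalized Cast, 129 and all reads for 50600 genes. The fraction of Cast reads that the authors deposited was only checked against these counts (210803 values). Of the gene identifiers, 32722 had a symbol and 26017 a RefSeq position on GRCm38.p6. Exon lengths came from GENCODE M1, an older build, and may differ from the gene models counted.

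Levels were tested with edgeR (4.0.16; TMM, expression filter, quasi-likelihood, threshold 0.05 after Benjamini-Hochberg adjustment), with DESeq2 (1.42.0) as an alternative. For shares, Cast and 129 counts were 2 columns per library or clone, with the library or clone as a block. Counts of both libraries of each Ch clone were added up, except for comparisons among Ch clones. Correlations used log2(CPM + 0.1) and exact permutation. The sign-flip test against the 20 Mb window was added after the data were seen and was run on 10820 autosomal genes with at least 8 clones. The scripts were tested on simulated data. The members and lists were chosen with earlier results of these data known. Named genes are the members, list genes that passed a test, paralogs (1 of them is not reported here), the 2 most like genes and the nearest genes that reached 20 allele-specific reads in 8 or more clones, and values of a few markers and of Crebbp and Ep300 were added after they were seen. R 4.3.3, Python 3.11.15, pandas 2.3.3 and matplotlib 3.10.9 were used. Alternatives were other tools, scaling, filters, read minima, limits and terms, and leaving out each clone or library.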

Additional observations from a re-analysis of the deposited data

Results flagged for a closer look

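Of 26 groups of clones tested, 3 held a value far from the others, by the gap to the nearest value as a share of the range (Dixon's test). About 1 in 20 such groups is expected to do so by chance. Eya1 had 108 CPM in the astrocyte clone 129, against 24.7 CPM in the next clone, mC3. The Cast share of Eya3 was 9.48% in the astrocyte clone G4, against 45.5 to 49.4% in the other 4 astrocyte clones. The Cast share of Six4 was 41.7% in Ch3, against 100% in Ch5, Ch7 and Ch8, where every 10 Mb bin of chromosome 12 had a median share of at least 99.9%. The shares of the windows around these genes stand beside the results above. In clone 129 the median level of the window genes of Eya1 was 0.37 higher (log2) than in the other astrocyte clones, and that of all other chromosome 1 genes was 0.44 higher. That of Eya1 itself was 5.10 higher. No explanation was tested.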

How the results depend on the processing

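Of 765 recomputed values, 702 kept their direction and side of the threshold or stayed within the spread, 12 passed the threshold only in the alternative, 7 no longer passed it, and 44 moved. The sign turned in 24 of those that moved, 0 of which passed the threshold before or after, among them the relation of Eya3 without G4 (r = 0.45), that of Eya2 without mG2 (r = 0.08) and Six4 Cast over 129 without clones of uneven windows (-0.17). Over all genes, leaving out 1 clone moved the number of genes called between astrocytes and poly(A) NPCs from 4644 to between 2269 and 4849, the lowest without mG2, with 2667 without F5 and 3030 without mG6. Among the Ch clones, 2834 levels were called, 4361 with no low-count filter and 1509 to 3244 with 1 library left out. The shares called among Ch clones were 1025, and 1560 when each allele was scaled to its own total. Those called between cell types were 247, 60 with the 8 poly(A) clones alone and 72 to 307 with 1 clone left out. With monoallelic limits of 5 and 95%, 5 of the 74 member values were monoallelic, against 17. The cause of these changes was not tested, other than that fewer clones enter the fits.

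For single genes, Eya4 between cell types passed without mG2 as well (log2 3.37, edgeR adjusted p = 0.0499). Among Ch clones without the low-count filter, the levels of Eya2, Eya4 and Dach1 passed (edgeR adjusted p = 0.0242, 0.0343 and 0.00307). Same-numbered libraries of the Ch clones had correlations of their deviations from -0.18 to 0.28, so the numbers are not shown to pair the libraries. With the number as a replicate block, 3391 levels and 1022 shares were called, and no call of the 7 genes changed. Few allele-specific reads limit the Cast shares of Eya4 in the Ch clones, of Dach1 in 5 clones and of Eya2 in astrocytes.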
